A study of Mus musculus with 10 samples.

Results

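In chromatin of the mouse cortical midline, 1067 of 2515 peaks that the authors' deposited table places in gene bodies (42.4%) had more Rcor2 signal than input chromatin in every library pair. They were chosen by peak height, a coverage value that the table gives for each peak and library: the smaller of the 2 Rcor2 heights had to exceed the larger of the 2 input heights. The other 1448 gene body peaks did not meet the rule, and the table lists 6995 peaks in all. Because the heights chose these peaks, their heights are described below without a test. The RNA values come from other libraries and were not used in the choice.

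The study concerns callosal development and measured tissue dissected from the cortical midline at embryonic day 14.5, strain C57/Bl6. Rcor2 ChIP, IgG ChIP and total input (2 libraries each) came from wild type embryos. RNA came from 2 control libraries of genotype Rcor2f/f and 2 libraries of Rcor2f/f/EMX1-iCRE, called cKO here. Both RNA genotypes carry the loxP-flanked Rcor2 alleles, and Cre in the cKO is driven from Emx1, a gene of dorsal forebrain progenitors, so cells outside that lineage keep Rcor2. The labels do not say whether replicates were separate embryos or pools, so p-values measure the spread between these libraries. Replicate 1 of each genotype had Y-linked transcripts and replicate 2 had Xist, which shows that the libraries of 1 genotype came from different animals.

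Rcor2 belongs to the CoREST corepressors, which hold the histone demethylase Lsd1 (Kdm1a) and the histone deacetylases Hdac1 and Hdac2 in 1 complex and bring them to DNA-binding factors such as Rest. The complex removes histone marks of active chromatin and is best known for keeping neuronal genes low in other cell types and in progenitors. A peak inside a gene body can lie at an enhancer, at an inner promoter or in transcribed sequence, and ChIP after fixation can also recover open or heavily transcribed chromatin without a specific contact. Input chromatin, sheared but not precipitated, measures part of that background.

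No genome sequence was used here, so most of these peaks cannot be shown as letters. RefSeq windows of 250 bases upstream of annotated starts (GRCm38.p6, the assembly also called mm10) overlapped 2 of the 1067 peaks and 8 of the 1448 gene body peaks not above input. Both are shown because they are the peaks whose sequence could be read, and the E330013P04Rik window is shown because a promoter peak covers all 250 of its bases. Each is written 5′ to 3′ along the gene's own strand, with the bases under the peak in capitals.
Gm32506, chr1:75459523-75459772, minus strand, 35 bases under the Asic4 peak: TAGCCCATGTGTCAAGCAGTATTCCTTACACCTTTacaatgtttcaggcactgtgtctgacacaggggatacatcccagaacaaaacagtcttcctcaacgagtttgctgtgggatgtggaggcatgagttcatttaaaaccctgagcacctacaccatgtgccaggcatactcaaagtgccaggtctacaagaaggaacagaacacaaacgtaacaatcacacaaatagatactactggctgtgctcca
4922502B01Rik, chr8:109249746-109249995, minus strand, 147 bases under the D030068K23Rik peak: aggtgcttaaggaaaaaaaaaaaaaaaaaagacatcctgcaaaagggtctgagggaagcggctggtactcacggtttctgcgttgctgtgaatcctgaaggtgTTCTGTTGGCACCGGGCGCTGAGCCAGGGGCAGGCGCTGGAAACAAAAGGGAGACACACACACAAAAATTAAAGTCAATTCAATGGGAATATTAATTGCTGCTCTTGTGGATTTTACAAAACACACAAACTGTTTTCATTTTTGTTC
E330013P04Rik, chr19:60144425-60144674, plus strand, 250 bases under its promoter peak: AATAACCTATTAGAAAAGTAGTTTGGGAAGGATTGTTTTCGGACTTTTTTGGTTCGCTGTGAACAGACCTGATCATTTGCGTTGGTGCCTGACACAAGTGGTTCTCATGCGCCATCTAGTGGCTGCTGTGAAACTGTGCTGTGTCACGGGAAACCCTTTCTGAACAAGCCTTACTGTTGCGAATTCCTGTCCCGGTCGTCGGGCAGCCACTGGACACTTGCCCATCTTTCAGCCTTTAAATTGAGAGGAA

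The Asic4 peak (chr1:75459738-75459893) had Rcor2 heights of 13 and 15 and input heights of 11 and 9. Asic4 encodes a subunit of the acid-sensing ion channel family. The D030068K23Rik peak (chr8:109249469-109249892) had Rcor2 heights of 14 and 19 against 10 and 8. The GC content of the 2 windows was 45.6% and 43.2%, below the median of 52.4% over 32851 such windows. E330013P04Rik, a gene with no assigned protein, held both kinds of peak. Its promoter peak had Rcor2 heights of 14 and 16 below input heights of 21 and 20, whereas a peak 3625 bases from its start (chr19:60148040-60148580) had Rcor2 heights of 42 and 60 above input heights of 11 and 13. That gene was picked after its values were seen.

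Short motifs were searched in the windows on both strands, each counted on its own even where letters overlap. The Gm32506 window held 1 Tcf/Lef motif (CTTTGA, on the opposite strand), found in 13.8% of all windows. That match lies outside the bases under the Asic4 peak. The 4922502B01Rik window held 1 NFI motif (TTGGCA, 12.3% of windows) and 1 CA repeat (CACACACAC, 1.86%), both among the bases under its peak. The E330013P04Rik window held none of the motifs searched. The others searched were the left arm of the Rest motif TTCAGCACC (0.301% of all windows), its right arm GGACAGCGC (0.304%), the E-boxes CAGCTG (13.0%) and CAGATG (14.4%), and the Sox motif ACAAAG (16.5%). The search also took in a homeodomain motif TAATTA (4.84%), a GC box GGGCGG (32.7%), a Gli motif GACCACCCA (0.225%) and a CTCF core AGGGGGCGC (1.11%). The remaining ones were AP-1 TGANTCA (6.75%), the Pou octamer ATGCAAAT (1.60%) and a GA repeat GAGAGAGAG (1.63%). A missing match says only that these letters are not in the window.

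Heights at the 1067 peaks were low. The median height was 14 in Rcor2 replicate 1 and 19 in replicate 2, with 9 in each input library and 4 and 3 in the IgG libraries. At gene body peaks not above input, Rcor2 medians were 12 and 18 and input medians were 15 and 14. Between the classes the input median thus stood 6 and 5 apart, and the Rcor2 median 2 and 1 apart. Heights are coverage values without scaling for library depth, so an Rcor2 height above input is a relation within this table and not an enrichment. Dividing each library's heights by its own median over all 6995 peaks left 793 of the 1067 in the class. Those medians were 13 and 19 for Rcor2 and 13 and 12 for input, so this division could only remove peaks. They are heights at Rcor2 peaks and do not measure library depth.

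**Figure D1:**
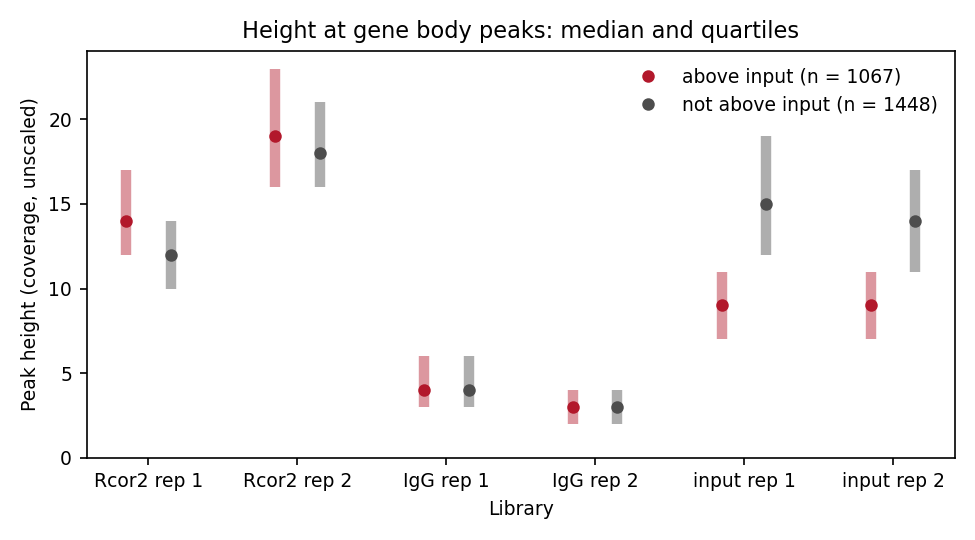
Peak height (coverage, not scaled for depth) in the 6 ChIP and input libraries at gene body peaks above input (red, n = 1067) and not above input (grey, n = 1448). Points are medians and bars run from the lower to the upper quartile. The classes sit far apart in the input libraries, where the medians were 9 against 15 and 9 against 14, and close together in the Rcor2 and IgG libraries.

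The rule mostly rested on Rcor2 replicate 1, which had the smaller Rcor2 height at 875 of 1067 peaks (82.0%), and the 2 replicates tied at 57. Replicate 1 was also the smaller at 1300 of 1448 gene body peaks not above input (89.8%). Over all listed peaks its median height was 13, against 19 in replicate 2. At 1065 of the 1067 peaks the smaller Rcor2 height was also above the larger IgG height, as it was at 1426 of the 1448 others. Peaks had been called against IgG, so that relation was built into the list. The authors' fold enrichment over IgG had a median of 4.03 at the peaks above input and 3.83 at the others, and median peak length was 246 and 222 bases.

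The peaks farthest above input were ranked by the ratio of the smaller Rcor2 height to the larger input height, with 0.5 added to both. The median ratio over the 1067 peaks was 1.35. The Ugt1a10 peak (chr1:88176107-88176280), in a locus of UDP-glucuronosyltransferases that clear lipophilic compounds, had Rcor2 heights of 16 and 15, IgG heights of 4 and 3 and input heights of 2 and 0. The Peg10 peak (chr6:4751852-4752749) had Rcor2 heights of 29 and 35, IgG heights of 5 and 4 and input heights of 3 and 5. Peg10 is an imprinted gene derived from a retrotransposon. Of the 10 largest ratios, the Peg10 peak and the Cacna2d3 peak had the most Rcor2 coverage.

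Zmym2 encodes a zinc finger protein that binds the Lsd1-CoREST complex. Its leading peak (chr14:56905332-56905633) had Rcor2 heights of 23 and 30 and input heights of 5 and 5. It held 2 further peaks above input, with Rcor2 heights of 13 and 18 and of 9 and 21. Dlg2 encodes a postsynaptic scaffold. The Dlg2 peak (chr7:92237606-92237852) had Rcor2 heights of 26 and 21 over input heights of 4 and 5, at 2754 bases from the nearest listed start of the gene. The Cacna2d3 peak (chr14:29695806-29696180), in a calcium channel subunit gene, had Rcor2 heights of 30 and 34 over input heights of 9 and 9. Cyp7b1, a steroid hydroxylase gene, 4930467D21Rik, the collagen-processing protease gene Adamts2 and Sh3d19 gave 4 more of the 10. Their Rcor2 heights ran from 12 to 20 and their input heights from 1 to 4.

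High coverage and a high ratio picked out different peaks. The peaks with the most Rcor2 coverage were named after their values were seen. The Scfd2 peak (chr5:74349835-74350854) had Rcor2 heights of 49 and 86, input heights of 23 and 17 and the authors' fold enrichment of 15.6 over IgG. Scfd2 encodes a protein of the Sec1 family. The Lrp8 peak (chr4:107816921-107817552), in a reelin receptor gene, had Rcor2 heights of 41 and 84 over input heights of 26 and 23. The Tcf7l1 peak (chr6:72645524-72646050), in a Wnt pathway transcription factor gene, had Rcor2 heights of 37 and 59 over input heights of 16 and 19. At the Col23a1 peak (chr11:51455546-51455805) every library was high, with Rcor2 heights of 49 and 62, IgG heights of 23 and 16 and input heights of 37 and 36. The Wdr76 peak (chr2:121522333-121522783) was alike, with Rcor2 heights of 43 and 53, IgG heights of 14 and 17 and input heights of 40 and 33.

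**Figure D2:**
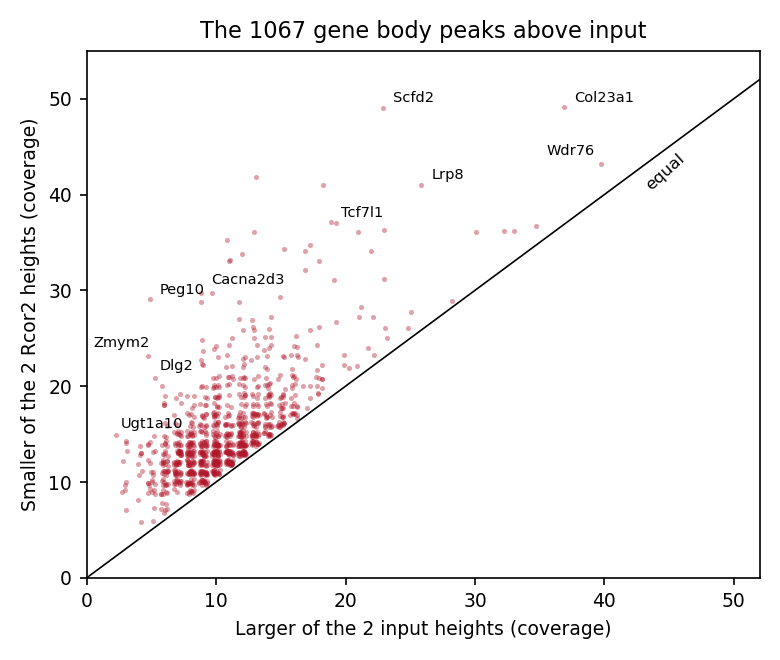
Smaller Rcor2 height against larger input height (both coverage) for each of the 1067 peaks, with points moved by up to 0.3 units so that equal values stay visible and the line marking equal heights. Most points crowd just above the line below an Rcor2 height of 20, while Peg10, Zmym2 and Dlg2 stand well to its left and Wdr76 and Col23a1 are high on both axes.

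Many members were close to the boundary. The smaller Rcor2 height exceeded the larger input height by 1 at 166 peaks (15.6%), by 2 at 172 and by more than 10 at 74. On the other side, 199 gene body peaks had equal heights and 166 fell short by 1. Just inside, the Tspan18 peak had Rcor2 heights of 29 and 30 against input heights of 28 and 19. Prex1 had 26 and 33 against 25 and 22, and the second Lrp8 peak 23 and 23 against 19 and 22. Just outside, Elfn2 had 30 and 37 against 23 and 30, Rbm20 22 and 24 against 22 and 12, and Draxin 22 and 42 against 22 and 18. This Draxin peak missed the rule through replicate 1 alone, and 2 other peaks of Draxin, a secreted axon guidance gene, met it.

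The peaks were spread along their genes, as were the gene body peaks not above input. Of the 1067, 1064 carried a gene name found in RefSeq, and 1056 summits fell inside that gene's span. Exons, introns and UTRs were not told apart here. The summit was a median of 45106 bases from the nearest listed start of its own gene (n = 824 peaks with starts listed on 1 chromosome and strand). For gene body peaks not above input the median was 46816 bases (n = 1075). The summit was within 5000 bases at 9.22% of peaks, against 8.93% of the gene body peaks not above input, and within 100000 bases at 69.8% against 67.9%. Measured along the span from the gene's start, 55.5% of 823 summits were in the upstream part before the midpoint, against 50.7% of 1074 for the others. The last 10% of the span held 6.56% of the peaks above input and 8.57% of the others.

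**Figure D3:**
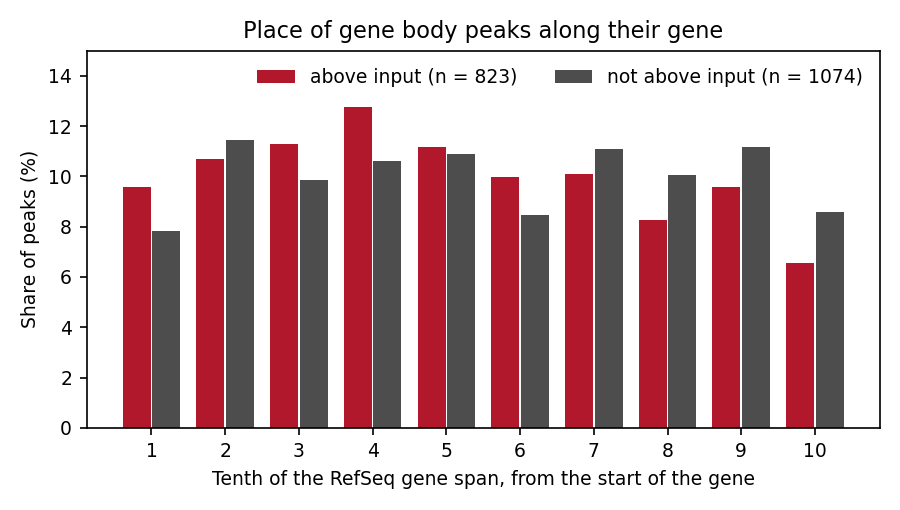
Share of gene body peaks (%) in each successive 10% of the RefSeq gene span, from the gene's start to its end, for peaks above input (red, n = 823) and not above input (grey, n = 1074) with a known strand. Both classes spread over the whole gene, with the red bars lowest in the last 10% at 6.56%.

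Another peak of any class lay within 10000 bases of 33.1% of the peaks above input and of 40.1% of those not above input. No test was made, as neighbouring peaks share chromatin. Chromosome 2 held 10.4% of the peaks above input and 7.67% of the others, and chromosome 5 held 7.03% and 10.8%. The X chromosome held 5 of the 1067. Another 5 peaks carried the names of microRNA genes that RefSeq places on other chromosomes (Mir3470a, Mir8115, Mir1195, Mir669e and Mir680-2), and 3 carried names that a spreadsheet had turned into dates.

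The 1067 peaks belonged to 798 gene names. There were 634 genes with 1 such peak, 105 with 2 and 59 with 3 or more, and 307 of the 798 also held a gene body peak not above input. A gene could thus fall in both classes. A promoter peak was present in 126 of the 798. Peaks in the same gene share a locus and are not independent of each other.

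Dennd1a carried the most. It encodes a guanine nucleotide exchange factor of endocytic traffic, and 10 of its 11 gene body peaks were above input. They spread from 28.4 to 361 kb from its nearest listed start, with Rcor2 heights of 10 to 29 in replicate 1 and 11 to 48 in replicate 2, against input heights of 5 to 16 and 5 to 10. The tallest of them (chr2:37926172-37926581) had Rcor2 heights of 29 and 48 over input heights of 9 and 8. Tenm4, a teneurin adhesion protein gene, had 27 gene body peaks, of which 8 were above input. Its Rcor2 heights at those 8 ran from 12 to 22 and from 14 to 26, so none reached the tallest Dennd1a peak.

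Celf2, an RNA-binding splicing factor gene, had 6 of 9 gene body peaks above input, the noncoding gene 2610307P16Rik 6 of 8, Gm20757 6 of 7 and Ppp2r2b, a phosphatase regulatory subunit gene, 6 of 10. Macrod2 had 5 of 9. Nfia, a nuclear factor I gene needed in midline glia, had 5 of 14. The tallest Nfia peak (chr4:97609859-97610882) was 1024 bases long, with Rcor2 heights of 25 and 30, IgG heights of 7 and 4 and input heights of 11 and 11. At the smallest of the 5 (chr4:97648671-97648863) Rcor2 heights were 8 and 15 and input heights 4 and 3.

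The RNA libraries gave 30270598 and 27674987 whole reads over genes in the controls against 28309925 and 29783893 in the cKO. RNA levels are normalized counts, which are not per length and so compare a gene only with itself. The deleted gene was read first. Rcor2 had 7901 and 7257 normalized counts in the controls against 6363 and 6840.2 in the cKO. Both cKO libraries were below both controls, but the log2 change of -0.20 (SE 0.0574) had a limma adjusted p of 0.0541 and was not called. The authors' deposited table gives Rcor2 an adjusted p of 0.0444. Which part of Rcor2 the reads cover was not analysed here, and Rcor2 itself had no gene body peak above input.

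Library cKO 1 stood apart in genes of the meninges. The summed level of 8 meningeal markers was 3064 and 2873 in the controls, 10649 in cKO 1 and 3802 in cKO 2. Of the 8, 3 rose, and none held a gene body peak above input. Collagen gene Col1a1 had 355 and 258 counts in the controls, 2442 in cKO 1 and 611 in cKO 2.

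Genes with a gene body peak above input changed in both directions, and the shift of the group as a whole was close to 0. Of 796 usable gene names, 755 were in the RNA table and 727 passed the filter of a mean of 10 normalized counts. Among the 727, 86 rose in the cKO (11.8%), against 6.16% of the 14324 genes tested, and 116 fell (15.96%), against 8.29%. The other 525 were not called. A call means a limma adjusted p under 0.05 over all 14324 genes, of which 14.5% were called. The median log2 change was -0.01 both for these genes and for all genes. Sizes were modest, as they were over all genes: 8 of the 202 called genes moved by 2-fold or more, 3 up and 5 down. Over all tested genes, 118 of the 2070 called moved that far. The median absolute log2 change of called genes was 0.351 over all genes and 0.361 for these.

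The counts moved with each library left out, and calls were fewest without a control, over all genes as in the 727. Each such fit leaves a lone library in its group, assumed to vary like the others. The median log2 change of the 727 genes was -0.0153 without control 1 and 0.00254 without control 2, against -0.0163 and -0.0124 over all genes. It was -0.0266 without cKO 1 and 0.00886 without cKO 2, against -0.0118 and -0.0146. With 2 libraries a group, an exact permutation test of a single gene cannot go below p = 0.333, so every call rests on the limma fit over all genes.

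Genes with only the other kind of gene body peak had a similar share of calls. Of 534 tested genes whose gene body peaks were all not above input, 56 rose and 78 fell, 25.1% in all, next to 27.8% for the 727. Genes with no peak of any class had 12.7% called. Gene length moved with these shares: the median RefSeq span was 134 kb for the 727 and 24.2 kb for all tested genes. Read support did too, with a median of 1760.1 normalized counts against 833. The part of span in the result was not tested beyond the span groups that follow, and the part of read support was not tested.

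Within span groups the falls of long genes were nearly the same with and without these peaks. At 200 kb or more, 71 of 275 genes with a peak above input fell (25.8%), as did 107 of 415 genes with no peak of any class (25.8%). At 50 to 200 kb, 34 of 313 fell (10.9%), against 270 of 2410 with no peak (11.2%). For rises the shares stood further apart. At 50 to 200 kb, 48 of 313 genes with a peak above input rose (15.3%), against 123 of 2410 with no peak (5.10%), and 24 of 230 with only peaks not above input (10.4%). At 200 kb or more, 25 of 275 rose (9.09%), against 21 of 415 with no peak (5.06%) and 10 of 162 with only peaks not above input (6.17%). Below 50 kb, 13 of 139 rose (9.35%), against 430 of 8682 with no peak (4.95%). There 22 of 142 with only peaks not above input rose (15.5%), so the order of the peak classes turned around. Read support still differed inside the span groups. At 50 to 200 kb the median was 2395.8 normalized counts with a peak above input and 1080.9 with no peak. At 200 kb or more it was 1391.2 and 483.3. These shares are descriptions, with no test of the differences.

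**Figure D4:**
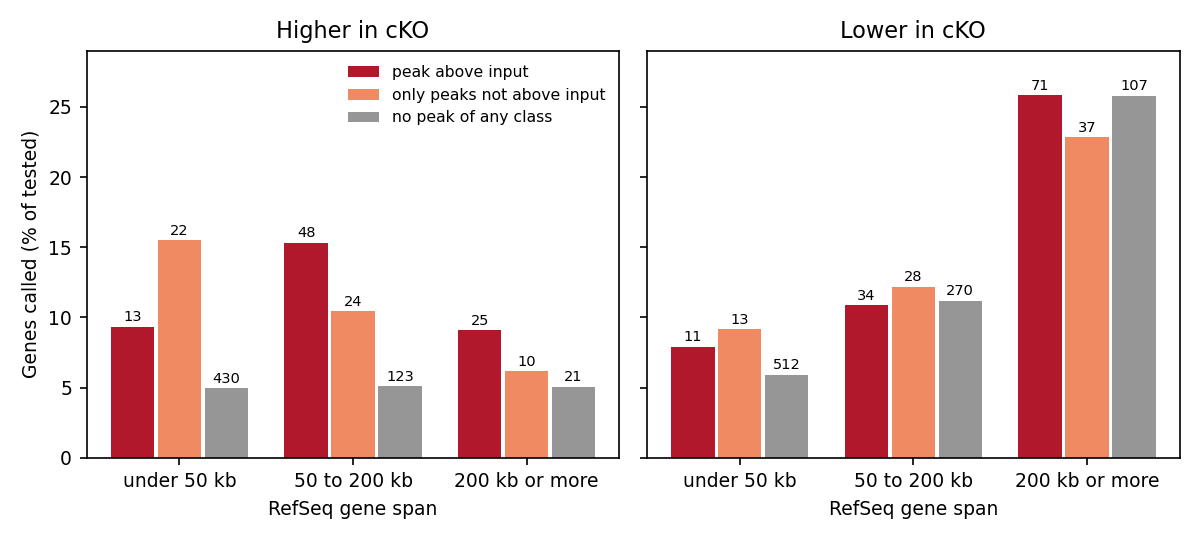
Share of tested genes (%) called higher (left) or lower (right) in the cKO at a limma adjusted p under 0.05, by RefSeq gene span and by peak class, with the number of called genes over each bar. The bars for falls are highest at 200 kb or more in all 3 classes, at 25.8% both with a peak above input and with no peak, while rises at 50 to 200 kb were 15.3% with a peak above input and 5.10% with none.

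Genes were also split by whether they held a promoter peak. Of 124 tested genes with both kinds of peak, 29 rose (23.4%) and 15 fell (12.1%). Of 603 with no promoter peak, 57 rose (9.45%) and 101 fell (16.7%). Genes with a promoter peak and no gene body peak above input (n = 1147) had 124 rises (10.8%) and 64 falls (5.58%). Over all tested genes 6.16% rose and 8.29% fell. Median normalized counts differed as well, at 2477, 1619.5 and 1324 in that order of groups, and the differences were not tested. The share called was 26.7% of 569 genes with 1 peak, 30.0% of 100 with 2 and 34.5% of 58 with 3 or more. Over all tested genes it was 14.5%. Rises were 11.8%, 8.0% and 19.0% of the groups and falls 14.9%, 22.0% and 15.5%, so neither direction moved steadily with peak number. Median span was 115095, 222620 and 284488 bases, and the median normalized count was 1594, 2035 and 3132. Their part in these shares was not tested. Peak heights were alike in genes that rose, fell or were not called, with median Rcor2 heights of 15 and 19, 14 and 18, and 14 and 19. The median summit lay 60.5% along the span in genes that fell, 43.4% in genes that rose and 41.9% in genes not called. All 3 values include several peaks of 1 gene.

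The 12 largest rises took in genes of the nuclear envelope, signalling, transcription and the matrix. Syne3, which encodes the nesprin that ties the nuclear envelope to intermediate filaments, had 39.0 and 45.4 normalized counts in the controls against 161 and 101 in the cKO. Every cKO value was above every control value, and the log2 change was 1.58 (SE 0.248, limma adjusted p 0.00791). It held 2 peaks above input, the taller with Rcor2 heights of 32 and 42 over input heights of 17 and 10 (chr12:104964653-104965291). Dmrt1, a DM-domain transcription factor gene best known in the testis, had 41.0 and 60.5 counts in the controls against 160.4 and 127 in the cKO. Its log2 change was 1.502 (SE 0.230, limma adjusted p 0.00749), and its peak (chr19:25598513-25598837) had Rcor2 heights of 20 and 27 over 9 and 7. Skap1, a Src kinase adaptor gene of T cells, had 30.2 and 41.1 counts against 99.7 and 79.3, and rose by 1.31 on the log2 scale.

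Eya2, a transcriptional coactivator with a phosphatase domain, had 189 and 186 counts in the controls against 366 and 350.4 in the cKO. Its replicates were close within each genotype, and the log2 change was 0.93 (SE 0.105, limma adjusted p 0.00429). Nptx2, a secreted pentraxin that gathers glutamate receptors, had 179 and 231 against 389.7 and 350.4. Nfatc2, a calcium-regulated transcription factor gene, had 184 and 165 against 342 and 274. The groups did not overlap in either gene, and the log2 changes were 0.86 and 0.81.

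Bmp7, a bone morphogenetic protein made at the dorsal midline and meninges, had 327 and 312 counts against 624 and 476. The higher cKO value came from replicate 1, and the log2 change was 0.77 (SE 0.130, limma adjusted p 0.00946). Its peak (chr2:172932720-172933006) had Rcor2 heights of 22 and 18 over input heights of 11 and 11. Hmcn1, an extracellular matrix gene with 3 peaks above input, had 553 and 632 against 1129 and 882 and rose by 0.75 on the log2 scale. Zdbf2, an imprinted gene, was the most abundant of the 12, with 4351 and 4919.8 against 7585 and 6357. Fam129a, the mitochondrial lyase gene Clybl and Prtg, an immunoglobulin-family gene of the early embryo, made up the rest, with log2 changes of 0.76, 0.72 and 0.61. Without cKO 1, all 12 named rises but Prtg were still called, with limma adjusted p of 0.0084 for Bmp7, 0.0033 for Hmcn1 and 0.0103 for Syne3, and 0.05004 for Prtg. Without control 1 only Eya2 of the 12 was still called, at 0.0442, and without control 2 only Dmrt1, Eya2, Nptx2 and Zdbf2 were.

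The 12 largest falls took in adhesion, receptor, scaffold and transcription factor genes. Cdh8, a classical cadherin of cortical projection neurons, had 1429.6 and 1401 counts in the controls against 642 and 748 in the cKO. The log2 change was -1.03 (SE 0.0815), and its limma adjusted p of 0.00244 was the lowest of the named falls. Its peak (chr8:99348457-99348711) had Rcor2 heights of 14 and 19 over input heights of 11 and 9. Grm5, the metabotropic glutamate receptor 5 gene, had 1151 and 1223 against 511 and 662, a log2 change of -1.03. Dlgap1, a postsynaptic scaffold gene, had 1322 and 1373 against 603 and 776, a log2 change of -0.98. In all 3 the groups did not overlap, and the lower cKO value was in replicate 1.

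Cpne4, a copine gene, had 483 and 457 counts in the controls against 164 and 299 in the cKO. Its cKO replicates were far apart, so the log2 change of -1.08 had an SE of 0.235. Tox, an HMG-box transcription factor gene, had 425 and 401 against 185 and 218, a log2 change of -1.04 (SE 0.117). Ccdc129 had 278 and 279 against 99.7 and 181, with the same change of -1.04 and an SE of 0.241. Shtn1, whose product shootin links axon growth to the cytoskeleton, had 3591 and 3504 against 1692 and 2249, a log2 change of -0.86.

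Chrna7, the nicotinic receptor alpha 7 gene, had 865 and 828 counts in the controls against 406 and 535 in the cKO. Gabbr2, a GABA-B receptor subunit gene, had 505 and 562 against 269 and 324. The log2 changes were -0.86 and -0.85. Ptprt, a receptor phosphatase gene with 4 peaks above input, had 1152 and 1262 against 571 and 794 and fell by 0.84 on the log2 scale. Chl1, a neural adhesion gene of the L1 family, was the most abundant of the 12, with 10047 and 10117 against 5342 and 6458, a log2 change of -0.78 (SE 0.0792, limma adjusted p 0.00387). Sybu, which encodes a kinesin linker in axons, fell by 0.77 on the log2 scale. Of these 12 falls, 8 were still called without control 1, 7 without control 2 and all 12 without either cKO library. Cpne4 had an adjusted p of 0.0977 in the authors' deposited table.

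**Figure D5:**
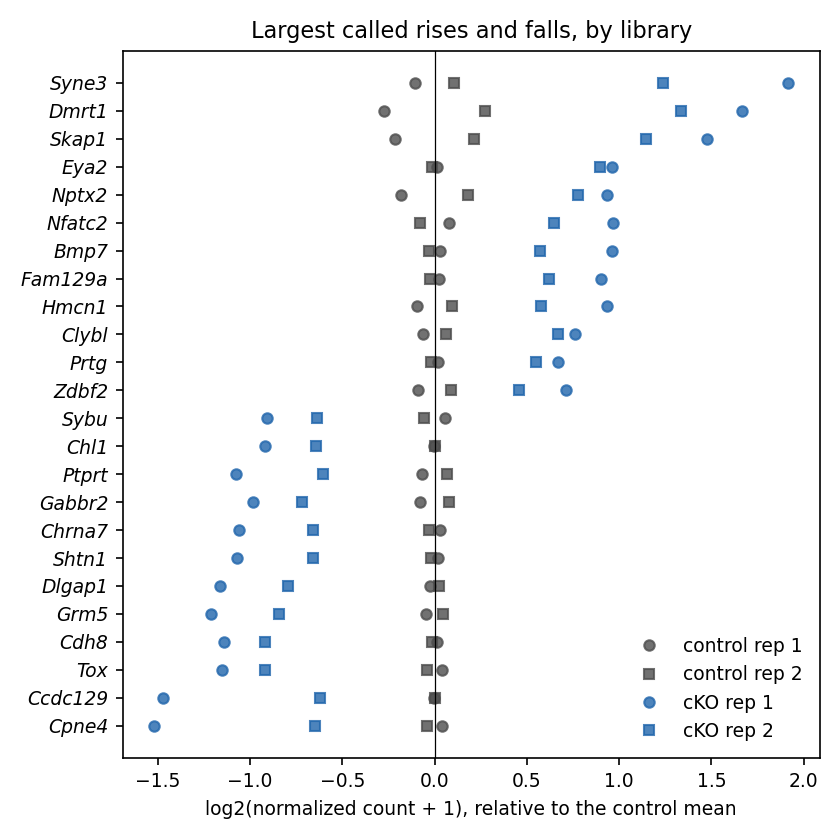
log2(normalized count + 1) of the 12 largest called rises and the 12 largest called falls among genes with a peak above input, each library relative to the control mean of its gene (circles replicate 1, squares replicate 2). The cKO values (blue) lie outside the control values (grey) in all 24 genes, and cKO replicate 1 is the more extreme in each, by most in Cpne4 and Ccdc129.

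Genes with the most or the strongest peaks did not move as 1 group. Dennd1a had 2116 and 2104 counts in the controls against 2468 and 2345 in the cKO, a log2 change of 0.19 (SE 0.0509, limma adjusted p 0.0430). Its edgeR adjusted p was 0.0314, and the authors' deposited table gives an adjusted p of 0.0706. Tenm4 had 25364 and 26526.5 against 30870.5 and 28764, a log2 change of 0.20 with a limma adjusted p of 0.0418. Its adjusted p was 0.0719 with edgeR and 0.00194 in the authors' deposited table. Ppp2r2b had 8324 and 7978 against 4806 and 5667, a log2 change of -0.64 (SE 0.0734, limma adjusted p 0.00429). Nfia had 22812 and 24443 against 24797 and 22552, overlapping groups with a log2 change of 0.00 (SE 0.0603). Celf2, Macrod2 and 2610307P16Rik were not called, with log2 changes of -0.16, -0.33 and 0.19.

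Of the 10 genes with the largest ratios, 8 were tested: 2 fell, Dlg2 among them, and 6 were not called. Among the 727 genes with a peak above input, 11.8% rose and 15.96% fell, and over all tested genes 6.16% and 8.29%. Zmym2 had 9505 and 10221 against 10042 and 9579.6, with overlapping groups. Of the 8 genes with the most Rcor2 coverage, Wdr76, E330013P04Rik, Rhbdl3 and Tcf7l1 were called higher and none lower, with Tcf7l1 close to the threshold. Rhbdl3, a rhomboid family gene, had 3850.1 and 3873 against 5408 and 4829.9, a log2 change of 0.40. Wdr76 had 814 and 866 against 1123 and 1072, a log2 change of 0.39. E330013P04Rik had 787 and 673 against 1021 and 907, a log2 change of 0.40 with a limma adjusted p of 0.0273. Its adjusted p was 0.0506 with edgeR and 0.0119 in the authors' deposited table. Since that group was named after its heights were seen, its count is no support for a relation.

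Lists of genes by role show where the peaks and the changes met. Among all tested genes, 5.08% held a gene body peak above input, and the lists below from 0 to 39.3%. Gene length differed too. The median span was 24204 bases over all tested genes, against 93.7 kb for the transcription factor list, 154 kb for axon guidance and 412 kb for synaptic genes. Of all tested genes of 200 kb or more, 275 of 916 held such a peak, against 139 of 10049 under 50 kb. The part of length in the list shares was not tested. Of 59 transcription factor genes of cortical development, 20 held one. Of those 20, 3 rose, 7 fell and 10 were not called, with a median log2 change of -0.05. The 39 without one had 9 rises, 12 falls and a median of -0.10. Those that fell include factors of postmitotic neurons. Myt1l, a neuronal repressor of other fates, had 5385 and 6053 counts against 3348 and 3858, a log2 change of -0.67. Mef2c, an activity-regulated factor, had 3405 and 3377 against 2046 and 2433, a log2 change of -0.60. Bcl11b, a factor of subcerebral neurons, and Sox5, a factor of deep-layer neurons, had log2 changes of -0.46 and -0.33. Foxp1, Meis2 and Zeb2 were the other falls, with log2 changes of -0.25, -0.22 and -0.18. Dach1, Rfx4 and the hedgehog-pathway factor Gli3 rose. Dach1 had 3505 and 3618 against 4901 and 4400.3, a log2 change of 0.38, and Rfx4 and Gli3 had 0.44 and 0.28.

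Of 53 axon guidance genes, 18 held a peak above input: 2 rose, 6 fell and 10 were not called, with a median of -0.07. The 35 without one had 6 rises, 11 falls and a median of -0.03. The Slit receptor Robo2, with 2 such peaks, had 4883 and 5088 counts in the controls against 3451 and 3705 in the cKO, a log2 change of -0.48. Its relative Robo1 had a log2 change of -0.39. Dscam, a netrin receptor, had 1896 and 1879.9 against 1161 and 1281, a log2 change of -0.63 with a limma adjusted p of 0.00387. Sema6d, a transmembrane semaphorin, had 3309.8 and 3093 against 1801 and 2251, a log2 change of -0.67. The netrin receptor Unc5a and the semaphorin receptor Plxnc1 rose by 0.26 and 0.21 on the log2 scale. The netrin receptor gene Dcc, the secreted cue genes Draxin and Slit1 and the ephrin receptor gene Epha4 were among the 10 not called.

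Of 56 neuronal adhesion genes, 22 held a peak above input, with 2 rises, 9 falls and 11 not called. Their median log2 change was -0.13. The 34 without one had 1 rise, 14 falls and a median of -0.23, and the median span of the list was 600.1 kb. Nrxn3, a neurexin gene, had 888 and 929.7 counts against 582 and 586, a log2 change of -0.64 (SE 0.0695). The cadherins Cdh13 and Cdh11 had log2 changes of -0.57 and -0.43, and Ctnnd2, a delta catenin gene, had -0.40. Tenm2, with 4 peaks above input, had 5571 and 5734 against 4308 and 4521, a log2 change of -0.36, the opposite direction to its relative Tenm4. Cntnap2, a neurexin-like gene, rose by 0.24 on the log2 scale.

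Of 62 synaptic and ion channel genes, 20 held a peak above input, with 1 rise, 9 falls and 10 not called. The median was -0.32, and the 42 without such a peak had -0.34, with 24 falls and no rise. The kainate receptor genes moved apart. Grik3, with 4 peaks above input, had 1977 and 1973 counts against 1293 and 1402, a log2 change of -0.55 (SE 0.0590). Grik2, with 3, had 4820.4 and 4935 against 5928 and 5360.4, a log2 change of 0.21 with a limma adjusted p of 0.0424. Dlg2 had 2178 and 2064 against 1634 and 1743, a log2 change of -0.33.

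Of 52 genes of Wnt, Bmp, Notch, Fgf and hedgehog signalling, 9 held a peak above input, and Bmp7 and Tcf7l1 rose while 7 were not called. The 43 without one had 13 rises and 1 fall. Tcf7l1, the Wnt pathway repressor whose peak is among the tallest, had 208 and 237 counts against 359.9 and 279.9, a log2 change of 0.52 with a limma adjusted p of 0.0484. That call was lost with edgeR (adjusted p 0.0551), in the authors' deposited table (adjusted p 0.0601) and without cKO 1 (limma adjusted p 0.191). Of 75 genes of chromatin regulation and the CoREST complex, 11 held one, with 3 rises, no fall and 8 not called, and the 64 without one had 3 rises and 5 falls. Chd7, a remodeller with 3 such peaks, had 13426 and 13534 against 18410.2 and 16136, a log2 change of 0.35 (SE 0.0630). The DNA methyltransferase gene Dnmt3a and the acetyltransferase gene Kat6b, with 1 and 3 peaks, had log2 changes of 0.30 and 0.22. None of the 50 tested cell cycle and replication genes held a gene body peak of any kind. These are short genes, with a median span of 17.6 kb, and 34 of the 50 rose.

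Cell type markers moved with these groups, and their part in the results was not tested. Of 15 pan-neuronal markers, 13 fell and none rose. The 3 of them with a peak above input, Rbfox1, Gap43 and Syt1, had log2 changes of -0.77, -0.55 and -0.40. Of 15 radial glia markers, 8 rose and 1 fell, and the 3 with a peak above input, Vim, Tnc and Slc1a3, were not called. In these bulk libraries fewer cells of a type and less RNA per cell cannot be told apart. Among the other marker lists, 4 of 11 interneuron genes and 1 of 4 blood genes fell and none rose, no vascular gene of 10 or microglial gene of 8 was called, and no gene of those lists held a peak above input.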

How the data were processed

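The gene body peaks and gene lists were chosen with earlier results of these data known. Rcor2 peaks were called against IgG by the authors, per the file headers, with deposited values for each peak of a pileup signal, a ratio (fold enrichment over IgG), and −log10 of p and q in columns whose headers were spoiled and which were told by place and range. They also deposited a height (coverage signal) per library. Of tools, the submitters' processing notes list Trim Galore and HISAT2 2.1.0, and of builds mm10, with no role. No source used here states the counter, annotation, strand use, peak caller settings or the rule behind location classes and gene names.

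The deposited RNA values are counts normalized by the authors (signal), beside their log2 fold changes, a test score and p-values. Values came out as whole reads for 100% of entries (tolerance 1e-04) once divided by each library's step, and these were used for the edgeR alternative. Differences were tested with limma-trend (limma 3.58.1, R 4.3.3) on log2(normalized count + 1), two-sided, over 14324 of 16338 genes with a mean of at least 10, with Benjamini-Hochberg adjustment and a threshold of 0.05. The fit had 2 residual and 6.21 prior degrees of freedom and was tested on simulated data. Spans and starts come from RefSeq GRCm38.p6, matched by symbol for 796 genes. Replicate numbers are not said to pair libraries. The fold of low genes is understated on this scale.

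Named were the 10 peaks with the largest ratio of heights, the 3 nearest the boundary on either side, the 8 genes with most peaks, the 12 largest called rises and falls with a mean of at least 50 (no predicted, Rik or sex-linked genes), and up to 4 genes a list by adjusted p. A peak and gene that this rule names is not reported here. Other genes were named as list members or, where said, after their values were seen. Alternatives were other scalings, filters, pseudocounts, edgeR (edgeR 4.0.16), a replicate block, leaving out libraries, other peak rules and, added after seeing the data, the authors' deposited test.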

Additional observations from a re-analysis of the deposited data

How the results depend on the processing

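The split into peaks above and not above input depended on the rule. With the smaller Rcor2 height at least 1.5 times the larger input height, 433 peaks remained. Of their 349 tested genes, 43 rose and 47 fell (25.8%), next to 27.8% called under the main rule. At or above the median −log10 q of gene body peaks, 652 peaks remained. Of their 485 tested genes, 62 rose and 77 fell (28.7%). Leaving out 1 RNA library at a time gave 4 to 148 rises and 19 to 147 falls among genes with a peak above input, and 140 to 3453 calls over all genes. The Rcor2 change ranged from -0.26 to -0.14 and was called without cKO replicate 2 (-0.25, limma adjusted p 0.0096) and in the authors' deposited test (-0.19). Nfia, not called in any of these fits, ranged from -0.066 to 0.071 when 1 library was left out, below 0 without cKO replicate 1 (-0.066) and without control replicate 1 (-0.05). With the replicate number as a block, 90 genes rose and 116 fell, of which 81 and 110 were called without the block. The correlation of same-numbered deviations was 0.242, and the labels do not say that numbers pair libraries. In both genotypes replicate 1 had the Y-linked transcripts and replicate 2 had Xist, so the block also follows sex. The part of sex in the correlation was not tested. Other scalings, filters, pseudocounts and edgeR gave 83 to 91 rises and 93 to 119 falls. Of 43 named genes called, 26 lost the call without control 1 and 26 without control 2, 5 without cKO 1, 2 with edgeR, 2 with quantile normalization (Ccdc129 and Tcf7l1), 2 with the replicate block (Dennd1a and Tenm4) and 3 in the authors' deposited test (Cpne4, Dennd1a and Tcf7l1). Macrod2 was called with the block. In these the cause was not tested. Height carries no depth, so no interval could be given for a peak.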
